A study of Mus musculus with 5 samples.

Results

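The comparison described here sets the lung cells that had spent 2 weeks away from doxycycline (Dox) against the same kind of culture at the end of 2 weeks with Dox, as the log2 value of the 2WND+2W+D+2W-D array minus that of the 2WND+2W+D array. Its members are the 15436 genes, of 22180 with a probe paired with exactly 1 gene symbol, whose highest value over the 5 arrays of the series reaches the median of all deposited values, 4.78, called the floor below. The probe with the highest mean over the arrays stands for a gene with several. A difference of 1 is 2-fold, which is the size called higher or lower here. Each side is 1 array, so the values have no replicate error and no test was run.

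The cells were adult mouse lung alveolar epithelial type II (AEC-II) cells of R26-rtTA/Col1a1::tetO-4F2A mice, in which Dox switches on Oct4, Sox2, Klf4 and c-Myc and both groups carry both transgenes. The Dox-responsive activator is expressed from the broadly active Rosa26 locus, so the cassette is not restricted to AEC-II cells. They were sorted as CD45-negative, CD31-negative, EpCAM-positive cells and grown in Matrigel over mouse embryonic fibroblast feeders. The 2WND+2W+D group had 2 weeks without Dox in epithelial medium and then, after passaging, 2 weeks with Dox in medium for embryonic stem cells, and is called AEC-II-iPL in the study. The 2WND+2W+D+2W-D group had 2 further weeks without Dox, in a medium that the sources used here do not give. The other arrays are Day0 (freshly isolated cells), 2WND (2 weeks of culture, no Dox) and iPS (induced pluripotent stem cells), 1 array each. RNA of 3 separate samples per group was used in equal amounts, and neither pooling on 1 array nor removal of the feeders is stated. Age beyond adult, and sex, are not given. The removal of Dox, 2 additional weeks in culture, any passage and a possible change of medium are confounded, so they cannot be told apart.

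AEC-II cells make surfactant and can give rise to the flat alveolar type I (AEC-I) cells. The conducting airway is lined by other epithelial cells, among them ciliated cells, whose motile cilia are built from an axoneme of microtubules and dynein motors, and club cells, which secrete small proteins and carry many enzymes of xenobiotic metabolism. During the first steps of factor-driven reprogramming, cells usually divide more and shed part of their specialized expression. This pair of arrays addresses which genes differ once the factors are withdrawn before pluripotency.

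After withdrawal, 1248 of the 15436 genes (8.08%) were at least 2-fold higher than with Dox and 952 (6.17%) at least 2-fold lower, and 13236 were within 2-fold. With every value below the floor raised to it, 1118 genes (7.24%) were higher and 830 (5.38%) lower. The higher genes included genes of motile cilia, club cells, xenobiotic metabolism and macrophages. The lower genes included contractile genes of smooth muscle, squamous and cornified genes, extracellular matrix and protease genes and part of the cell cycle genes. Housekeeping genes lay between -0.46 and 0.57, with a median of 0.03, the same as the median over all 15436 genes. At 4-fold, 345 genes were higher and 181 lower. In RNA of whole cultures, fewer cells of a type and less RNA per cell cannot be told apart.

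**Figure D1:**
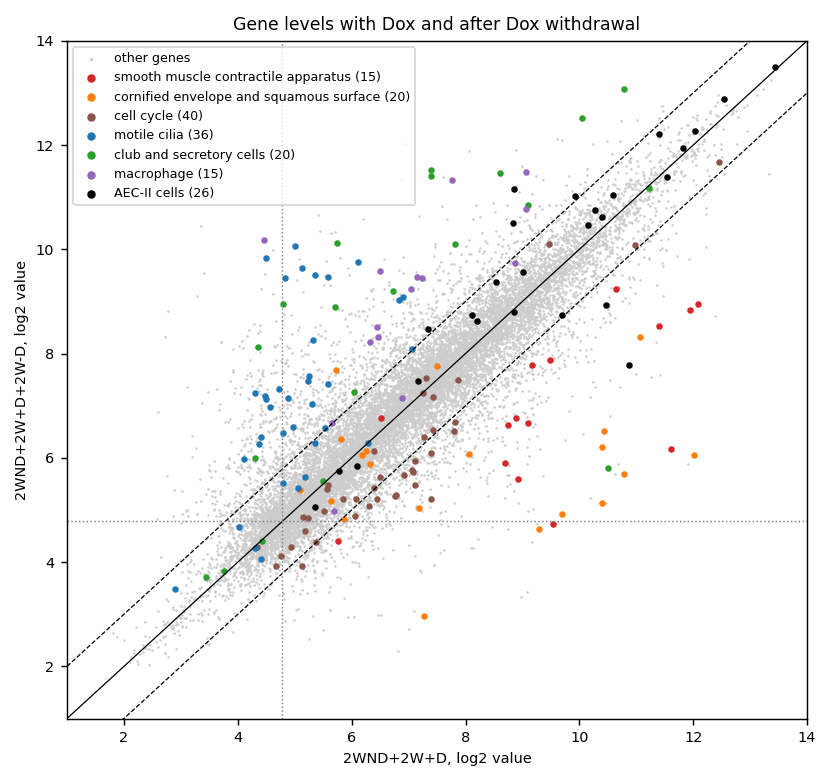
Log2 value of each of the 15436 genes with Dox (2WND+2W+D, horizontal axis) and after withdrawal (2WND+2W+D+2W-D, vertical axis), 1 array each. Grey points are all genes, coloured points are members of 7 lists, the solid line marks equal values, dashed lines mark 2-fold and dotted lines the floor of 4.78. Below the lower dashed line lie 14 of 15 smooth muscle and 12 of 20 squamous surface genes, and above the upper one 27 of 36 cilia, 14 of 20 club cell and 12 of 15 macrophage genes. The squamous surface list was made after the values were seen and holds several of the largest differences, so its place is partly due to that choice.

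The size of these differences can be set against 2 measures from the arrays themselves. The robust spread of the difference over all genes compared (the median absolute deviation, scaled to match a standard deviation) was 0.51. Among 595 genes with at least 2 probes that reach the floor, the difference of the highest probe and that of the second departed from each other by a robust spread of 0.45, or 0.32 per probe. Of 76 such genes called by the highest probe, the second probe had the same sign in 57 and was also at least 2-fold, in the same direction, in 20, and in none was it 2-fold in the opposite direction. The second probes were dimmer, with a median mean level of 5.43 against 7.28. Most genes named below have 1 probe and so no second measurement.

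**Figure D2:**
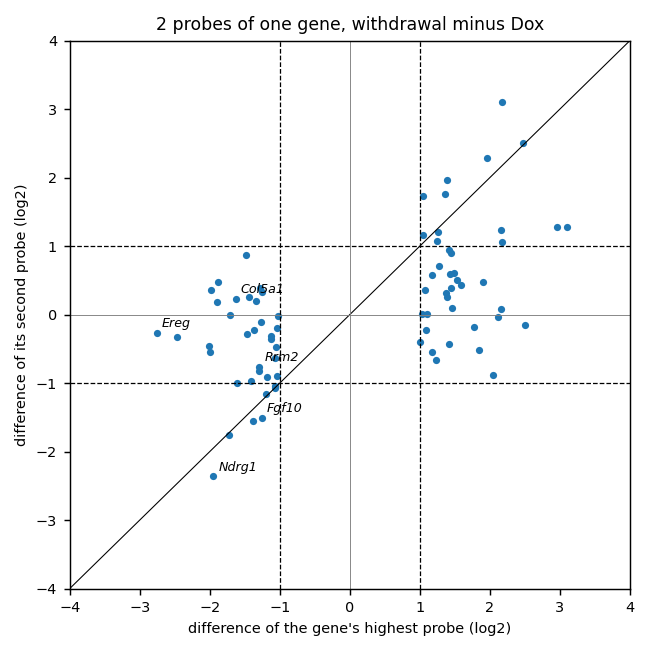
Difference between withdrawal and Dox (log2) of the highest probe of a gene (horizontal axis) and of its second probe (vertical axis) for the 76 genes with at least 2 probes that the highest probe calls. Dashed lines mark 2-fold and the diagonal marks equal differences. Ndrg1 and Fgf10 are past 2-fold with both probes, whereas the second probes of Ereg, Col5a1 and Rrm2 are not.

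Values of single genes are given in the order Day0, 2WND, 2WND+2W+D, 2WND+2W+D+2W-D and iPS. Where 1 of the 2 compared arrays lies below the floor, the fold takes 4.78 in its place and is a lower limit, written as at least. The genes with the largest differences were chosen by rank from the floor, 15 in each direction, leaving out predicted genes, small RNAs and receptor families by the form of their symbols, which did not catch the small nucleolar RNA gene AF357425.

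The contractile genes of smooth muscle were lower after withdrawal almost as a block. These genes encode actins, myosins and their regulators, and the factor SRF with its coactivators is known to drive many of them. Of 15 genes, 14 were at least 2-fold lower (13 counted from the floor) and none was higher, with a median difference of -2.43. Cnn1 (calponin, which binds actin) had log2 values of 4.91, 5.38, 11.62, 6.18 and 8.46, and was 43.4-fold lower after withdrawal. Actg2, the enteric smooth muscle actin, had 3.95, 4.03, 9.53, 4.73 and 5.31, at least 26.8-fold lower. Both were thus far higher with Dox than on any other array of the lung cells.

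Acta2, α-smooth muscle actin, had log2 values of 6.51, 8.29, 11.94, 8.85 and 9.32 and was 8.57-fold lower after withdrawal. Myh11, the smooth muscle myosin heavy chain, had 5.47, 5.46, 8.92, 5.59 and 5.61 and was 10.04-fold lower. Tagln (transgelin) went from 12.08 with Dox to 8.96, and Myl9, a myosin light chain, from 11.40 to 8.54. The smallest differences among the 14 were those of Des (desmin, -1.38) and Synpo2 (-1.36, under 2-fold from the floor), and Mylk, myosin light chain kinase, was within 2-fold (0.25). Among the 4 SRF coactivator genes, Myocd (myocardin) was at least 2.01-fold lower, Mrtfa was 1.98-fold lower, and Srf (-0.52) and Mrtfb (0.10) were within 2-fold. The 10 genes of striated muscle that reach the floor had a median of -0.09, and Acta1, skeletal muscle actin, was the 1 called, with 8.45 with Dox and 6.12 after withdrawal.

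Of the 12 smooth muscle genes with a promoter window in RefSeq (250 bases before to 50 after the start, assembly GRCm38.p6), 1 holds the full SRF CArG box on either strand, 8.33% of them against 1.57% of the 12030 compared genes with a window. Because the share rests on 1 gene, the percentages cannot be compared. The gene is Myl9, and 130 bases before its start are shown with the match in capitals (chr2:156775243-156775372, plus strand).
Myl9: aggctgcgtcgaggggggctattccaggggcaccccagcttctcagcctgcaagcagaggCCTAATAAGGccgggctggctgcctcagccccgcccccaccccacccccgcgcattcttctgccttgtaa
The match ends 152 bases before the start. A match is a description of the letters and not a measured binding site.

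Extracellular matrix genes were lower in the same direction but by less. Of 19 genes of fibrillar collagens and their crosslinking, 10 were lower and none higher (median -1.03), among them Col12a1 (11.93 with Dox, 9.81 after withdrawal) and Col1a1, the main chain of type I collagen (12.22 and 10.68). Of 18 matricellular and TGF-β response genes, 11 were lower and none higher (median -1.42). In the ligand part, Inhba, a subunit of activin, had 3.67, 4.91, 9.18, 5.02 and 6.26 and was 17.9-fold lower, whereas Tgfb1 (-0.52) and Tgfb2 (-0.60) were within 2-fold and Tgfb3 was 4.10-fold lower. Among the targets, Tnc (tenascin-C) had 4.24, 8.52, 12.38, 8.72 and 9.58 and was 12.6-fold lower, and Ccn2 (connective tissue growth factor) was 4.61-fold lower. Fn1 (fibronectin, -0.68) and Sparc (-0.33) were within 2-fold.

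Of 18 matrix proteases and inhibitors, 12 were lower and 2 higher. Mmp12, an elastase, was 8.85-fold lower and the tissue inhibitor Timp1 was 3.11-fold lower, while Mmp2 (2.06-fold) and Mmp11 (2.70-fold, second probe 0.60) were higher. Among the 24 integrin and laminin genes, 14 were lower and 1 higher (median -1.09). Itga2, a collagen receptor subunit, had 5.22, 5.40, 9.36, 5.66 and 5.73 and was 13-fold lower. Itgb6, a subunit of the receptor that activates latent TGF-β, was 7.21-fold lower, and the laminin chain gene Lama3 7.45-fold lower. Lama2 was the exception on the higher side, at 2.54-fold.

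Mesenchymal identity genes differed less than the contractile ones. Of 19, 9 were lower (8 counted from the floor) and none higher, with a median of -0.92, and with the array medians aligned 5 were lower. Thy1, a fibroblast surface protein, was 3.23-fold lower, Pdgfrb 2.14-fold and Vim (vimentin) 2.10-fold, with a second Vim probe at -0.64. Dcn (decorin, -0.08) and Pdgfra (-0.70), which mark fibroblasts, were within 2-fold, and Dcn stood at 8.37, 11.42, 11.90, 11.81 and 10.27. Lrrc15, known from activated fibroblasts, was among the largest differences, with 4.81, 5.15, 10.69, 5.89 and 5.81 (27.8-fold lower).

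The 19 mesenchymal genes had a median log2 value of 4.96 at Day0, 8.48 in 2WND, 9.70 with Dox, 8.93 after withdrawal and 7.53 in iPS, so that all 3 cultured lung arrays lay well above the sorted cells. Xist, the RNA of the inactive X chromosome in female cells, had 4.08, 5.27, 8.85, 5.37 and 4.74, and was 11.1-fold lower after withdrawal. The Y-linked genes Kdm5d, Uty and Eif2s3y differed by -0.03, 0.68 and 0.88 between the compared arrays. Hoxc8, a gene of posterior body position, had 4.20, 5.20, 8.23, 6.37 and 4.73 and was 3.62-fold lower, and of 15 Hox and positional genes 4 were lower (2 counted from the floor) and none higher. The part of female or feeder-derived cells in the matrix and contractile differences was not tested.

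Several squamous and cornified genes were among the 15 largest differences on the lower side. Genes of this kind encode keratins of stratified epithelium and proteins that are joined under the membrane of flattening surface cells. Of 16 genes of basal and squamous keratinocytes that reach the floor, 8 were lower (7 counted from the floor) and 2 higher. Of 20 further cornified and squamous surface genes, a list made after the values were seen, 12 were lower and 1 higher, with a median of -2.06. Tgm1 stands in both lists.

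Sprr2b, a small proline-rich protein of the cornified envelope, had log2 values of 6.26, 6.32, 12.02, 6.05 and 5.69 and was 62.7-fold lower after withdrawal. Krt6a, a keratin of activated and wounded epithelium, had 3.89, 5.18, 9.17, 4.39 and 3.72 and was at least 20.9-fold lower, and Krt16, its partner in the same cells, was at least 19.6-fold lower. Both were below or near the floor on every array but the one with Dox. Tgm1, the transglutaminase that crosslinks the envelope, had 7.86, 6.02, 10.39, 6.20 and 7.65 (18.2-fold lower), and Nccrp1 (38.5-fold), Ly6g6c (34.1-fold), Slurp1 (27.3-fold) and Scel (at least 22.9-fold) were likewise highest with Dox and lower after withdrawal. Lor (loricrin, -0.37) and Ivl (involucrin, -0.24), late genes of the cornified layer, were within 2-fold.

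The basal part of the list was divided. Krt14, a basal cell keratin, had 5.02, 8.66, 10.47, 5.14 and 5.23, so that it was high with Dox and also in 2WND, and was 40.2-fold lower after withdrawal. Krt15, another basal keratin, had 5.13, 3.96, 3.29, 9.10 and 3.92 and was at least 20-fold higher after withdrawal, the only array on which it was clearly above the floor. Trp63, the transcription factor of basal cells, was 2.16-fold higher but dim (4.80 and 5.91), and Krt17 (0.66) was within 2-fold. Krt5 has no probe with 1 symbol and was not analysed here. The Sprr2 and Krt6 families contain near-identical genes, and a probe may measure more than 1 of them.

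Mucosal genes of the stomach and of goblet cells gave the largest difference of all on the lower side. Ctse (cathepsin E, a protease of gastric surface cells) had 4.76, 6.19, 11.91, 5.88 and 4.98 and was 65.0-fold lower after withdrawal. Anxa10, a gastric annexin, had 3.36, 3.47, 8.97, 3.33 and 3.36 and was at least 18.3-fold lower. Muc5ac, the gel-forming mucin of gastric and airway surface cells, had 4.84, 4.55, 10.50, 5.81 and 4.25 and was 25.9-fold lower. These were high on the Dox array alone. Of the 12 listed genes that reach the floor, 5 were lower, 1 higher and 6 within 2-fold, with a median of -0.62. Not every gene named above is in this list. Muc4, Tff1 and Gkn1 were also lower, and Agr2 was higher by 1.53 (under 2-fold from the floor). Spdef, a goblet cell regulator, was within 2-fold (-0.06).

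**Figure D3:**
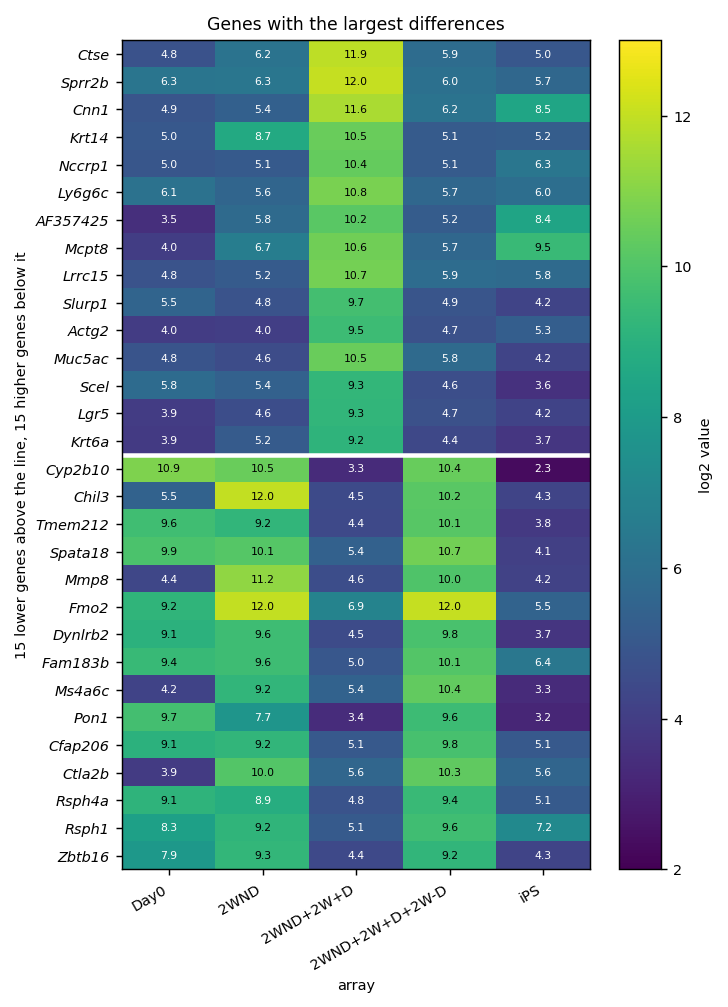
Log2 values on the 5 arrays (columns) of the 15 genes with the largest lower and the 15 with the largest higher differences after withdrawal, ranked from the floor. Of the 15 lower genes, all have their highest value with Dox. Among the 15 higher genes, Cyp2b10, Pon1 and the cilia genes are high at Day0, whereas Chil3, Mmp8, Ms4a6c and Ctla2b stand between 3.91 and 5.47 there.

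Transitional and progenitor genes of the alveolus were mostly lower or within 2-fold. The transitional state, in which AEC-II cells express Krt8 on the way to AEC-I cells after injury, was represented by 15 genes, of which 7 were lower and none higher (median -0.94). Cldn4, a claudin of that state, had 5.92, 9.30, 11.41, 7.60 and 11.40 and was 14.1-fold lower, and Ndrg1 was 3.87-fold lower with its second probe at -2.36. Krt8 itself (-0.72) and Krt18 (-0.38) were within 2-fold. Of 12 lung progenitor markers, 6 were lower and 1 higher.

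The study measured the α6β4 integrin and Hopx as proteins that mark progenitors. The integrin subunit genes Itga6 and Itgb4 were 2.17-fold and 2.32-fold lower after withdrawal. Itga6 had 6.15, 7.23, 8.47, 7.35 and 8.86, and Itgb4 had 6.59, 6.83, 8.21, 7.002 and 6.50. Hopx is not in the list of progenitor markers above, and in the mature lung it is restricted to AEC-I cells. Its RNA went the other way, with 5.08, 6.10, 4.69, 5.999 and 4.37 (at least 2.32-fold higher after withdrawal). By staining, the study reported Hopx in a large part of the SPC-positive cells with Dox. It found fewer double-positive cells after withdrawal. RNA of whole cultures and stained protein in single cells are different measures. Lgr5, a receptor of Wnt-responsive stem cells, had 3.95, 4.62, 9.25, 4.72 and 4.23 and was at least 22.2-fold lower, but its second probe lay between 4.10 and 4.32 on all 5 arrays. Sox9 (2.27-fold) and Etv4 (3.28-fold), factors of the embryonic lung tip, were lower.

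Growth factor genes of the mesenchyme were among the lower genes too. Of 21 genes of FGF and EGF signalling, 8 were lower and 2 higher. The ligands Fgf7 (4.67-fold), Fgf10 (2.39-fold) and Hgf (4.23-fold), which act on epithelium, were lower, as was Ereg (6.76-fold), an EGF receptor ligand whose second probe differed by -0.26. Fgf1 (3.31-fold) and the receptor gene Fgfr3 (2.17-fold) were higher. In Wnt and BMP signalling 4 of 26 genes were lower (15.4%), led by the BMP inhibitor Grem1 (5.26-fold), and Wnt4 and Wnt11 were higher (7.69%). Over all genes compared, 6.17% were lower and 8.08% higher.

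Cell cycle genes differed in part. Of 40, 15 were lower after withdrawal (14 counted from the floor) and none was higher, with a median of -0.88. Mki67, the proliferation marker, had log2 values of 6.03, 4.53, 7.39, 5.20 and 10.31 and was 4.56-fold lower. Cdk1, the kinase of mitotic entry, had 6.34, 5.33, 7.40, 6.09 and 11.12 and was 2.48-fold lower, and the replication helicase gene Mcm5 went from 7.11 to 5.48. Pcna (0.64), Mcm7 (-0.27) and Cenpf (-0.05) were within 2-fold. The level with Dox was far from that of the iPS array, since the list had a median of 6.63 with Dox, 5.45 after withdrawal and 9.77 in iPS. None of the 15 cell cycle inhibitor and p53 target genes was called, although Cdkn1b (p27) came close on the higher side (6.12 and 7.12).

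Windows of 31 cell cycle genes were searched for 2 promoter motifs of this group, the CHR element (TTTGAA) and the CCAAT box (CCAAT), on both strands. The CHR element was in 12 (38.7%) against 14.3% of the 12030 genes, and the CCAAT box in 23 (74.2%) against 41.8%. Mki67 holds both, and 136 bases before its start are shown, with all matches in capitals (chr7:135716452-135716587, minus strand).
Mki67: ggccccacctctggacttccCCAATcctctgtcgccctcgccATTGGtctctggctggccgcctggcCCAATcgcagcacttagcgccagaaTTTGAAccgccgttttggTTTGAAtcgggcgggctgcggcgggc

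Most genes of motile cilia were higher after withdrawal. Of 36 genes, 27 were at least 2-fold higher after withdrawal, also counted from the floor, none was lower, and the median was 2.08. Foxj1, the transcription factor of motile ciliogenesis, had 8.46, 9.42, 6.11, 9.76 and 6.88 and was 12.5-fold higher. Rfx2 (3.09-fold) and Rfx3 (2.06-fold), which act with it, were higher, and Myb was at the border (2.04-fold, second probe 0.00). Mcidas (0.47) and Gmnc (-0.04), which start multiciliation, were within 2-fold, and so were Ccno and Deup1 of centriole amplification.

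In the axoneme part, Dynlrb2, a dynein light chain, had 9.07, 9.58, 4.49, 9.84 and 3.69 and was at least 33.2-fold higher. Rsph1, a radial spoke protein, had 8.25, 9.18, 5.13, 9.63 and 7.21 and was 22.6-fold higher, and Rsph4a of the same structure had 9.14, 8.86, 4.83, 9.44 and 5.11 (24.5-fold). Fam183b (33.2-fold) and the dynein heavy chain genes Dnah5 (at least 2.80-fold), Dnah6 (at least 5.28-fold), Dnah9 (4.80-fold) and Dnah11 (at least 3.06-fold) were also higher. The values at Day0 and in 2WND were thus close to those after withdrawal, and the Dox array alone among the lung arrays was near the floor. Outside this list, Tmem212, Spata18 and Cfap206, which are found in ciliated cells, were among the 15 largest differences (at least 41.1-fold, 37.8-fold and 26.7-fold).

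The RFX X-box, the motif bound by the RFX factors, was in the windows of 7 of 32 cilia genes (21.9%) and of 2.25% of the 12030 genes. The 7 are Ccno, Cfap45, Cfap52, Deup1, Dnah5, Hydin and Tekt1, and of these Ccno and Deup1 were not past 2-fold. Tekt1, a protein of axonemal microtubules, had the largest difference of them (7.59, 7.82, 5.33, 8.27 and 5.84, 7.69-fold higher), and the last 75 bases before its start are shown with the match in capitals (chr11:72361883-72361957, minus strand).
Tekt1: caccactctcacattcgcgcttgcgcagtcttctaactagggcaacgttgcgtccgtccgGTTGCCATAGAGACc

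**Figure D4:**
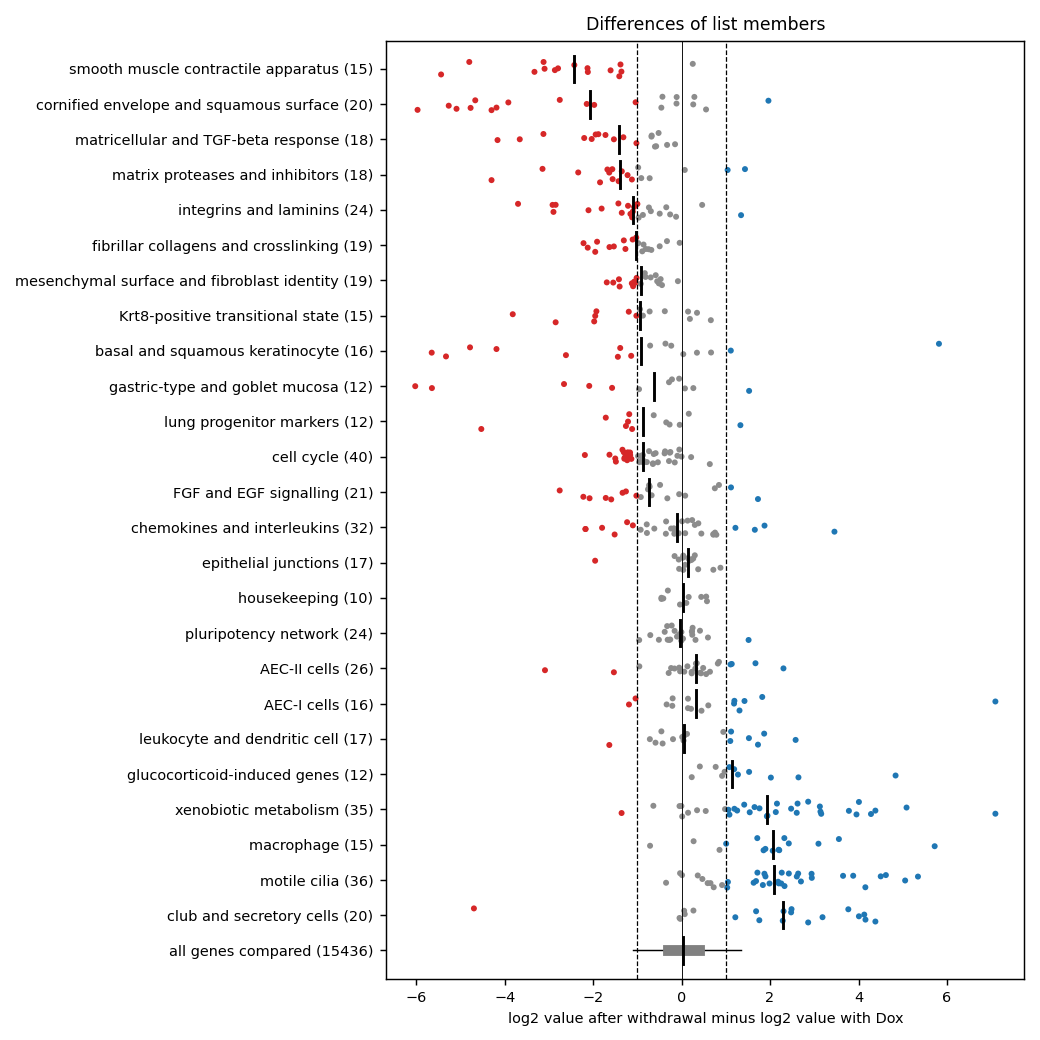
Difference between withdrawal and Dox (log2) of each member of 25 lists, with the number of members that reach the floor in parentheses. The cornified and squamous surface list and the glucocorticoid list were made after the values were seen. Points are genes, red at least 2-fold lower, blue at least 2-fold higher and grey within 2-fold, black ticks are list medians, and the lowest line gives the 5th, 25th, 50th, 75th and 95th percentile of all genes. The medians run from -2.43 for smooth muscle to 2.29 for club and secretory cells.

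Club and secretory cell genes were higher in 14 of 20 cases, with 1 lower, Muc5ac, and a median of 2.29. Scgb1a1, the secretoglobin that defines club cells, had 12.37, 11.19, 7.39, 11.52 and 3.62 and was 17.5-fold higher after withdrawal. Bpifa1, an antimicrobial protein of the upper airway, had 10.29, 10.23, 4.80, 8.96 and 3.71 (17.8-fold). Scgb3a1 had 7.60, 5.22, 5.71, 8.89 and 5.71 (9.09-fold), and so was higher after withdrawal than on any other array. Both ciliated and club cell markers were present at Day0, before culture (Foxj1 8.46 and Scgb1a1 12.37), in cells sorted as EpCAM-positive.

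Xenobiotic metabolism overlapped with the club cell list and was higher in 26 of 35 genes, with 1 lower and a median of 1.93. Cyp2b10, a cytochrome P450 induced through the receptor CAR in liver, had the largest difference on the higher side, with 10.86, 10.48, 3.35, 10.44 and 2.34 (at least 50.5-fold). Fmo2, the lung flavin monooxygenase, had 9.22, 12.01, 6.93, 12.01 and 5.50 (33.9-fold). In the conjugating part, Gsta3 (20.8-fold) and Gclc (6.07-fold), which makes glutathione, were higher, and Gsto1 (2.56-fold) was lower. Nqo1 (2.29-fold), Srxn1 (2.67-fold), Txnrd1 (2.08-fold) and Gclm (2.39-fold), known targets of the oxidant sensor NRF2, were higher by less. Of 5 carboxylesterase 1 genes, a list made after the values were seen, 4 were higher, and they are close relatives that probes may not separate. Pon1, a serum esterase, had 9.70, 7.73, 3.41, 9.55 and 3.19 and was at least 27.3-fold higher.

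Glucocorticoid-inducible genes, listed after the values were seen because Zbtb16 ranked among the largest, were higher in 7 of 12 cases with none lower (median 1.13). Zbtb16, a zinc finger repressor, had 7.87, 9.30, 4.41, 9.24 and 4.26 (at least 22-fold), Pdk4 was 6.24-fold and Fkbp5 2.88-fold higher. Sgk1 (0.23) and Per1 (0.41) were within 2-fold. The steroid content of the media is not given in the sources used here.

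Macrophage genes were higher after withdrawal, although CD45-positive cells had been removed by the sort. Of 15, 12 were higher and none lower, and their median was 2.06. The chitinase-like gene Chil3 of alternatively activated macrophages had 5.47, 11.97, 4.46, 10.18 and 4.25 (at least 42.1-fold). Adgre1 (F4/80) had 4.22, 9.60, 6.44, 8.50 and 5.05 (4.17-fold), and Marco, a scavenger receptor of alveolar macrophages, 5.10, 10.04, 7.24, 9.45 and 5.25 (4.62-fold). Ptprc, which encodes CD45, was below the floor at Day0 (4.19) and stood at 7.54 in 2WND, 5.71 with Dox and 7.23 after withdrawal. The median level of the 15 genes was 5.37 at Day0, 9.20 in 2WND, 6.89 with Dox, 9.45 after withdrawal and 5.25 in iPS, and the part of macrophage number in the other differences was not tested.

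Of 17 leukocyte and dendritic cell genes, 6 were higher and 1 lower, the higher ones being pan-leukocyte genes such as Tyrobp (5.97-fold). The MHC class II genes H2-Aa (-0.46), H2-Ab1 (-0.43) and H2-Eb1 (-0.72), which AEC-II cells also express, were within 2-fold. Among families collected after the values were seen, 8 of 11 Ms4a genes (7 counted from the floor) and 5 of 8 C-type lectin receptor genes (4 counted from the floor) were higher and none was lower. Ms4a6c had 4.19, 9.22, 5.44, 10.36 and 3.34 (30.1-fold). The neutrophil collagenase Mmp8 had 4.36, 11.19, 4.62, 9.98 and 4.19 (at least 36.8-fold), and Ctla2b, a protease inhibitor, had 3.91, 10.05, 5.63, 10.32 and 5.59 (25.8-fold). In contrast Mcpt8, a protease of basophils, was 30.8-fold lower (4.002, 6.65, 10.63, 5.69 and 9.46). Complement genes followed the macrophage genes in direction (3 of 7 higher, 5 with the array medians aligned), and chemokines and interleukins did not share 1 direction, with Cxcl17 11-fold higher, Cxcl14 4.52-fold lower and 4 of 32 higher against 6 lower.

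Most AEC-II genes were within 2-fold, and AEC-I genes were called more often. Of 26 AEC-II genes, 20 were within 2-fold, 4 were higher (15.4%) and 2 lower (7.69%), with a median of 0.32. Over all genes compared, 8.08% were higher and 6.17% lower, so AEC-II genes were not called less often than genes at large. Sftpc, surfactant protein C, had 13.43, 13.44, 13.43, 13.49 and 5.06, near the highest value on any array (13.58). On the Day0 and Dox arrays it was the highest value of all probes. Whether a difference can be seen at this level was not tested. Sftpd, surfactant protein D, had 12.10, 10.57, 8.83, 10.50 and 3.59 (3.18-fold higher), and the lipid transporter genes Abca3 (2.15-fold) and Cd36 (4.93-fold) and the factor Foxa1 (2.19-fold) were higher. Egfl6 was the exception of size, with 11.99, 7.03, 10.86, 7.77 and 5.12 (8.51-fold lower), and Chil1 was 2.89-fold lower. Lamp3 (0.55) and the lung regulator Nkx2-1 (0.31) were within 2-fold.

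Of 16 AEC-I genes, 6 were higher (37.5%) and 2 lower (12.5%), with a median of 0.33. Over all genes compared these shares were 8.08% and 6.17%. Ager, a receptor abundant on AEC-I cells, had 12.87, 12.84, 11.46, 12.65 and 5.43 (2.27-fold higher), Clic5 was 3.54-fold higher, and Aqp5 (0.45) and Pdpn (-0.20) were within 2-fold. Cyp2b10 also stands in this list. Of 17 epithelial junction genes, Cldn1 alone was called (3.88-fold lower), and Cdh1 (0.18) and Epcam (-0.06) were within 2-fold. The claudin gene Cldn4, 14.1-fold lower, is not in this list but in that of the transitional state. Endothelial genes that reach the floor were within 2-fold in 11 of 12 cases, Tek being at least 3.36-fold lower. Their median level was 6.29 at Day0, but 4.87 with Dox and 4.74 after withdrawal. So near the floor on both compared arrays, most could hardly differ, and the count does not show that they were unchanged.

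**Figure D5:**
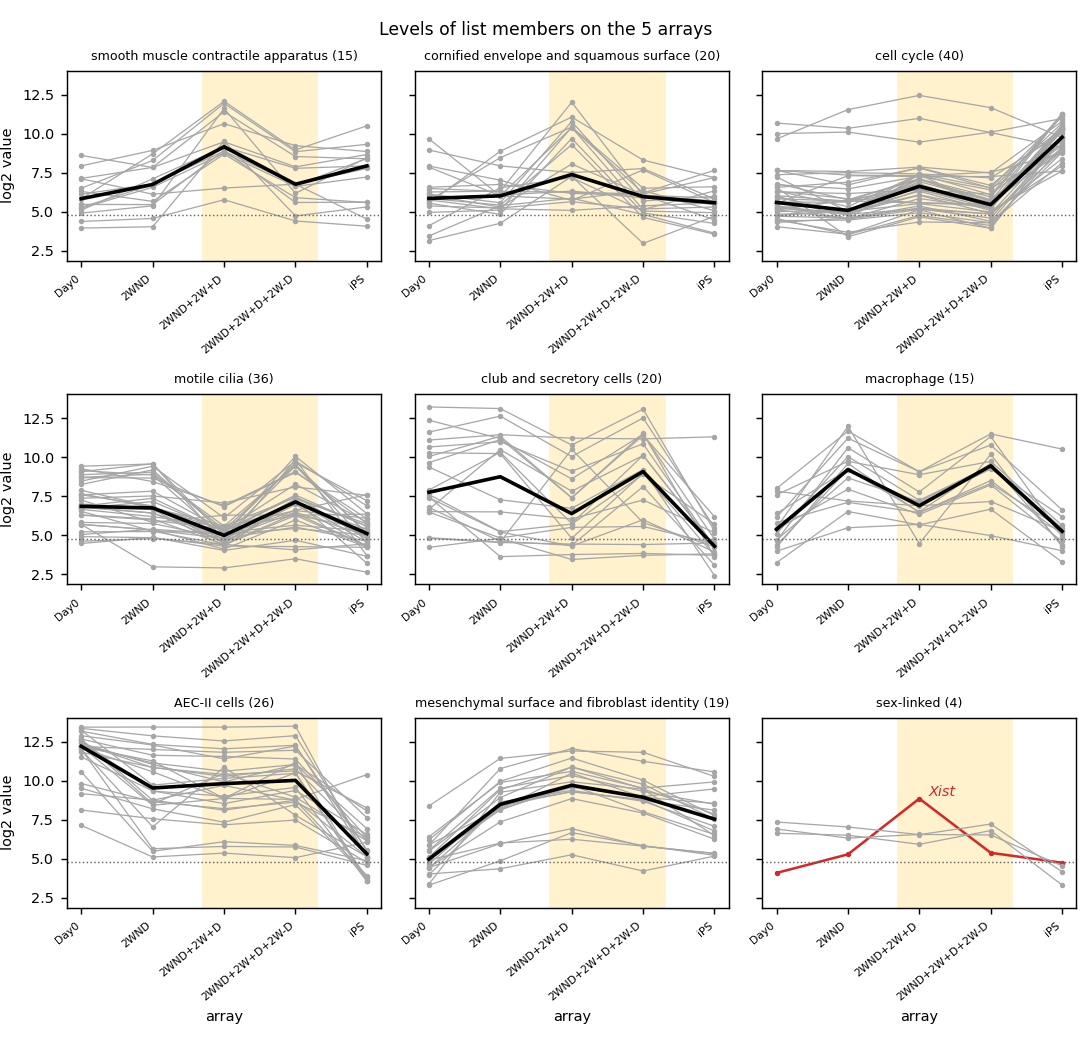
Log2 values (vertical axes) of the members of 9 lists on the 5 arrays (horizontal axes), 1 line per gene, with the list median in black and the floor dotted. The shaded band covers the compared arrays. Smooth muscle and squamous medians peak with Dox, cilia, club cell and macrophage medians dip there, and Xist is high on the Dox array alone. The squamous list was made after the values were seen.

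Of the genes of the reprogramming factors, the endogenous Sox2 gene alone was called. Sox2 had 5.76, 6.50, 4.40, 7.01 and 10.74 and was at least 4.68-fold higher after withdrawal, and it is also active in airway epithelium. Pou5f1 (Oct4), Klf4 and Myc differed by -0.07, -0.30 and -0.43, and whether their probes read transcripts of the Dox cassette is not known, so the array gives no direct measure of the transgenes. Of 24 pluripotency genes, 1 was called, Tfcp2l1 (2.85-fold higher), which had 10.31 at Day0. The median level of the 24 was 4.66 with Dox and 4.49 after withdrawal, both below the floor, against 9.12 in iPS. Many thus pass the filter through other arrays and could hardly be called, so the count does not show that they were unchanged. Nanog stood at 4.75 and 5.00 on the compared arrays and at 12.15 in iPS.

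In the lists of other pathways few genes were called. Over all genes compared, 8.08% were higher and 6.17% lower, and in lists of this size 0 to 2 calls cannot be told apart from these shares. No gene was called among 15 of the nuclear-encoded respiratory chain and 17 of ribosome biogenesis, 2 of 19 ATF4 target genes and 2 of 13 chaperone and unfolded protein response genes were higher with none lower, and 1 of 18 interferon genes was called in each direction. Of 22 cholesterol and fatty acid synthesis genes and of 16 hypoxia and glycolysis genes, 2 were higher and 1 lower each. Elovl6, a fatty acid elongase, was 6.68-fold lower and Herpud1, of the unfolded protein response, 3.43-fold higher. Rian, an imprinted noncoding RNA, had 3.97, 5.54, 8.78, 5.49 and 7.51 (9.79-fold lower), and the snoRNA gene AF357425, which lies within Rian in the RefSeq annotation, was 31.3-fold lower. Meg3, an imprinted RNA of the same cluster, was within 2-fold (-0.17).

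MicroRNA precursors are read dimly on this platform, and 9 of the 31 with a probe reach the floor. None was higher and 3 were lower (2 counted from the floor). Mir200c, an epithelial microRNA of the family that restrains Zeb1, had 3.09, 3.17, 6.51, 2.99 and 3.20 (at least 3.32-fold lower), while Mir141, made from the same primary transcript, was below the floor on all 5 arrays. Mir31 had 4.95, 4.49, 6.36, 4.70 and 5.09 (at least 2.98-fold), and Mir199a-1, of mesenchymal cells, was under 2-fold from the floor. Small RNA genes as a class were lower, since 37 of 164 microRNA genes and 20 of 64 snoRNA genes were lower against 2 and 1 higher. Counted from the floor, 23 and 17 were lower and 0 higher. Over all genes compared, 6.17% were lower and 8.08% higher (5.38% and 7.24% from the floor). The part of this class difference in the 3 calls was not tested. The mature sequences, with bases 2 to 8 (the seed that pairs with targets) in capitals, show that miR-200c-3p shares its seed with miR-200b-3p. The latter was added after its values were seen because Mir200b lay just inside 2-fold as deposited (-0.99). Counted from the floor, Mir200b differed by only -0.09.
miR-200c-3p: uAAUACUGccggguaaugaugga
miR-200b-3p: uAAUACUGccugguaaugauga
miR-31-5p: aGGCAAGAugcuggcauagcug
miR-199a-5p: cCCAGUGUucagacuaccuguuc
miR-199a-3p: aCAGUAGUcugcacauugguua
In RefSeq (GRCm38.p6) these lie on the minus strand, at chr6:124718324-124718346, chr4:156055685-156055706, chr4:88910614-88910635, chr9:21496537-21496559 and chr9:21496498-21496519.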

How the data were processed

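Gene expression was measured with Affymetrix Mouse Gene 2.0 ST arrays, 1 for each of 5 conditions. Per the labels, Affymetrix Expression Console was the authors' program, and log2 values of 41345 probes were deposited. The program version, summarization, normalization and genome build are not given in the sources used here. The log2 values were used as deposited. Their medians on the compared arrays were 4.82 (with Dox) and 4.71 (after withdrawal), and no detection calls were used, so that the number of arrays limits the precision.

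Of the probes, 23521 have 1 gene symbol, 1820 several and 16004 none, and the symbols of 23328 were matched by gene identifier to RefSeq (GRCm38.p6). Differences were calculated with pandas 2.3.3, numpy 2.4.6 and scipy 1.17.1 under Python 3.11.15 and drawn with matplotlib 3.10.9, with a 2-fold threshold and no test. The calculation was tested on simulated data with planted 4-fold differences and less error than the probe pairs show. That test checked the code and not the precision of the arrays. The comparison, the 46 gene lists and the rules for named genes were chosen with earlier results of these data known, and 6 lists were added after the values were seen. Up to 4 list members in each direction are named by rule, besides the 15 largest differences each way and genes the study measured, and others are named as exceptions after their values were seen. Of 893 listed symbols, 65 have no probe with 1 symbol. Promoter windows and microRNA sequences are those of RefSeq. Alternatives were quantile, median or lowess scaling, other filters, averaged probes, all probes, a 4-fold threshold and values raised to the floor. Fluorescence, staining and animal data were not analysed here.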

Additional observations from a re-analysis of the deposited data

How the results depend on the processing

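The counts of genes at least 2-fold higher (1248) and lower (952) after withdrawal stayed within 1.5 times under quantile normalization, aligned medians, lowess centring, the other filters, averaged probes and values raised to the floor. At 4-fold they were 345 and 181. Over all 24838 probes that reach the floor, with or without a symbol, 1646 were higher and 2359 lower, and the share of higher calls was 41.1% in place of 56.7%. Aligning the medians gave 1491 higher and 767 lower (66.0% higher) and moved the median of all genes from 0.03 to 0.14. None of the list medians past 2-fold and none of the recomputed single genes past it changed sign under any of the 5 scalings and summaries tried. Of 230 recomputed list medians 1 moved by more than 0.45, the probe-pair spread, that of the microRNA precursors (-0.09 with values raised to the floor), and of 240 recomputed differences 3 did (Lgr5 -2.28 with averaged probes, Cyp2b10 5.66 and Pon1 4.77 with values raised to the floor). No paired analysis was possible because each condition has 1 array, and no replicate could be left out for the same reason. Array noise is known only from probe pairs, and levels below 4.78 have no order here.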

Other observations

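Counted from the floor, 27 genes were at least 2-fold higher after withdrawal than on each of the other 4 arrays, and 465 were so on the Dox array, both sets chosen after the values were seen. Krt15 led the withdrawal set, followed by Cd300ld (3.82, 5.12, 4.99, 7.25 and 4.10 in the order Day0, 2WND, 2WND+2W+D, 2WND+2W+D+2W-D and iPS) and the Ms4a family gene Ms4a6b (3.69, 6.69, 4.81, 8.75 and 2.55). Maf, a transcription factor of macrophages and lymphocytes, had 4.32, 6.30, 6.20, 8.36 and 3.24 with 1 probe, while a second Maf probe gave 6.87 with Dox and 6.96 after withdrawal, and F13a1, a coagulation factor subunit made by macrophages, had 4.70, 6.09, 4.85, 7.81 and 4.43. Besides these myeloid genes the set held Scgb3a1, the antimicrobial lectin Reg3g (6.78, 4.60, 4.35, 8.12 and 3.07) and the sulfotransferase gene Sult1d1 (5.05, 3.19, 2.60, 6.88 and 3.03).

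Genes of skeletal tissues appeared among those lower after withdrawal. Col10a1, the collagen of hypertrophic cartilage, had 5.08, 4.96, 8.92, 5.13 and 5.45, and Tnmd (tenomodulin), known from tendon, had 3.45, 3.98, 9.09, 4.98 and 4.47. Of 12 adipocyte, bone and cartilage genes, 3 were lower (2 counted from the floor) and 2 higher, Fabp4 (5.05-fold) and Pparg (2.70-fold), which macrophages also express. Of 11 Notch genes 2 were higher (Hes6 and Hey1) and 1 lower (Notch3), of 16 immediate early genes Nr4a1 was 2.69-fold lower and no other was called, and of 11 acute phase and antimicrobial genes 3 were higher, led by Orm1 (6.98-fold), and 1 lower. Over all genes compared, 8.08% were higher and 6.17% lower, and 1 or 2 calls in lists of this size cannot be told apart from these shares. Of 3 lymphocyte and neutrophil genes that reach the floor, S100a8 was at least 2.31-fold higher.

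Probes without a gene symbol leaned the other way from the named genes. Of 7431 that reach the floor, 291 were at least 2-fold higher and 1275 lower after withdrawal, with a median of -0.20, whereas of 1201 probes with several symbols 69 were higher and 78 lower.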
